A study of Mus musculus with 8 samples.

Results

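The 10 genes described here belong to the YAP and TEAD axis and were measured in astrocytes, the star-shaped glia of the brain, from mice, with and without an inflammatory cocktail. They were chosen by gene symbol, as Ctgf, Cyr61, Ankrd1, Amotl2, Lats2, Ajuba, Yap1, Wwtr1, Tead1 and Nov, and all 10 were found among the 21878 genes of the deposited table. The cells came from newborn (P0) wild-type C57BL/6 mice, and 4 libraries of untreated cells stood against 4 libraries of cells given a mix of IL-1α and TNFα, both inflammatory cytokines, with C1q, the first component of complement. Doses, duration and the number of animals behind a library are not stated in the labels, so p-values measure the spread between libraries, which may be technical. Levels are in FPKM, fragments scaled to gene length and to library depth, so levels of different genes can be set side by side. Means are given ± SD over the 4 libraries of each group.

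YAP (Yap1) and its paralog TAZ (Wwtr1) are coactivators that do not bind DNA on their own. In the nucleus they join TEAD transcription factors and switch on target genes. The Hippo kinases LATS1 and LATS2 phosphorylate YAP and TAZ and hold them in the cytoplasm, while cell spreading, stiff matrix and actin tension favour their entry into the nucleus. The 10 genes hold 3 parts of this axis. The first is the factors themselves (Yap1, Wwtr1, Tead1). Regulators that act on LATS or YAP (Lats2, Amotl2, Ajuba) form another, and genes widely read as outputs (Ctgf, Cyr61, Ankrd1) the last. Of the regulators, Lats2 and Amotl2 are also known targets. Nov belongs to the same CCN protein family as Ctgf and Cyr61. Only RNA was measured, not the proteins, their phosphorylation or their place in the cell.

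Promoter sequences are shown to let the TEAD motif be seen in members that moved in different ways. The 250 bases before the RefSeq start site (GRCm38.p6) were searched on both strands for GGAATG, the core that TEAD factors bind, which reads CATTCC on the other strand. RefSeq promoters were matched for 7 of the 10 genes, all but Tead1, Ctgf and Nov. Capitals mark the motif in Cyr61 (chr3:145649986-145650235, minus strand), Ankrd1 (chr19:36119845-36120094, minus strand) and Ajuba (chr14:54577662-54577911, minus strand), each written 5′ to 3′ along the gene.
Cyr61: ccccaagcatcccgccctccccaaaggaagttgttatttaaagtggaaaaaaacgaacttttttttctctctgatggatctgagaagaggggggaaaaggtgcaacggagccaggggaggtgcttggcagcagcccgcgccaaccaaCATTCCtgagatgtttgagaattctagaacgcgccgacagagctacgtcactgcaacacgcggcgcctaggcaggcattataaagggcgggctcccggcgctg
Ankrd1: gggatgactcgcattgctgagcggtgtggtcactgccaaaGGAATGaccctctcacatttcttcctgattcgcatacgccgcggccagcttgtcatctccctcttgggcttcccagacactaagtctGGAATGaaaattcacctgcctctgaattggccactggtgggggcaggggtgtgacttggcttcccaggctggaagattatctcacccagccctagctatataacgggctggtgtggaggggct
Ajuba: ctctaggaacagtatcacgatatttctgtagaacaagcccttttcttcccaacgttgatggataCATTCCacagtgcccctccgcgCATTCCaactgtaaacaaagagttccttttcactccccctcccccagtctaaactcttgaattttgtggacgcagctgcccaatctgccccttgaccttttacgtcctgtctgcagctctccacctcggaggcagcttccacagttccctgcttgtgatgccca
The window held 1 match in Cyr61, from 103 to 98 bases before the start site, and 2 matches each in Ankrd1 and Ajuba. Amotl2, Yap1 and Wwtr1 also had 1 match in a window, and neither of the 2 start sites listed for Lats2 had one. Thus 6 of the 7 genes held the motif in at least 1 window. It was present in 12.6% of the 32851 RefSeq promoter windows of this length, with 2 or more matches in 1.02% of them. A count of genes, some with more than 1 window, is unlike a share of windows. The genes were also chosen for this axis, so no enrichment is read from these values. The AP-1 motif TGANTCA and the CArG box had no match in these windows, and were present in 6.75% and 1.47% of all windows. At such shares so few windows would often hold no match, so no depletion is read from this. A match of letters is a description and not a measured binding site.

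Depth lay between 19195898 and 20640490 fragments per library, as recovered from the FPKM values. C3 and Lcn2, known to respond to this cocktail, were 3.09-fold and 7.89-fold higher in mean FPKM in treated cells. The summed level of 8 astrocyte markers was 1043 to 1178 FPKM in untreated and 792 to 819 FPKM in cocktail libraries. Of these markers 7 were called lower, among them Aldoc 3.03-fold and Gfap 2.18-fold, and Aqp4 was called 1.53-fold higher. S100b was low in all libraries, at 1.00 to 1.41 FPKM in untreated and 0.187 to 0.504 FPKM in cocktail libraries. Cocktail libraries 1 and 2 lay apart from 3 and 4 on the second principal component (2.11% of the variance), and the summed level of 10 microglial markers was 15.8 and 16.4 FPKM in the first pair against 35.01 and 47.3 in the second, and 11.4 to 12.96 in untreated libraries. In this bulk RNA, fewer cells of a type and less RNA per cell cannot be told apart.

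In FPKM as deposited, the cocktail lowered the output genes Ctgf and Cyr61 and the kinase gene Lats2 by at least 2-fold. The coactivator genes Yap1 and Wwtr1 rose slightly. Genes with a Benjamini-Hochberg adjusted p under 0.05 in limma on log2(FPKM + 1) were called, over the 11845 genes that reached 1 FPKM in at least 4 of the 8 libraries. Of the 10 genes 9 were tested, and 2 rose and 7 fell. Over all tested genes 26.6% were called higher and 41.1% lower, 67.7% in all, so a call as such was common. The groups did not overlap in any of the 9, nor did they in 62.7% of all tested genes. A called fall of at least 2-fold in mean FPKM was rarer, at 7.86% of tested genes, and was seen in Ctgf, Cyr61 and Lats2, while none of the 9 had a called rise of that size (5.24% of tested genes). After rescaling the libraries by median ratios, 2 members rose and 6 fell, against 36.1% and 33.6% of all tested genes. Lats2 was still called lower, but its log2 change of -0.97 was then just short of 2-fold. The median log2 change was -0.45 over the 9 genes and -0.05 over all genes tested.

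**Figure D1:**
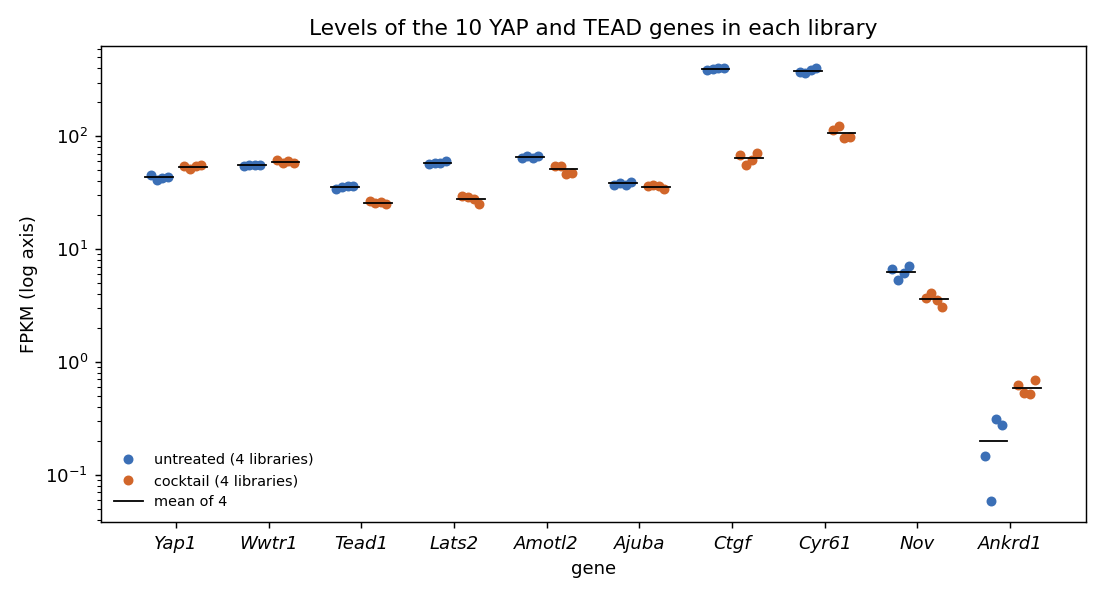
FPKM on a log axis for each of the 10 genes, with 1 point per library (4 untreated in blue, 4 cocktail in orange) and a line at the mean. Ctgf and Cyr61 drop from above 367 FPKM in all untreated libraries to below 124 in all cocktail libraries, while Yap1 and Wwtr1 lie slightly higher with the cocktail.

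Among the coactivators, Yap1 had 45.3, 40.6, 42.9 and 43.8 FPKM without treatment (libraries 1 to 4) and 54.0, 51.1, 54.4 and 55.2 with the cocktail (libraries 1 to 4), with means of 43.2 ± 1.98 and 53.7 ± 1.77 FPKM. Every cocktail library lay above every untreated one. The rise was 1.24-fold in mean FPKM, with a log2 change of 0.31 (SE 0.037; adjusted p from limma, 1.33e-05). Wwtr1, which encodes TAZ, had 54.3, 55.6, 55.9 and 56.0 FPKM in untreated and 62.0, 57.7, 60.0 and 57.5 in cocktail libraries. Its groups did not overlap either, but they lay close, at 56.0 and 57.5 FPKM for the nearest libraries. The rise of Wwtr1 was 1.07-fold, with a log2 change of 0.09 (SE 0.030; adjusted p from limma, 0.0149). Yap1 lies on chromosome 9 from 7931999 to 8004638 and Wwtr1 on chromosome 3 from 57455644 to 57575910 of GRCm38.

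Tead1 encodes a DNA-binding partner of YAP and TAZ and moved the other way. It had 33.8, 35.9, 36.5 and 36.6 FPKM in untreated and 26.5, 25.6, 26.0 and 25.3 FPKM in cocktail libraries. The fall to 25.8 ± 0.544 from 35.7 ± 1.29 FPKM exceeded the spread of both groups, with a log2 change of -0.45 (SE 0.032; adjusted p from limma, 1.38e-07). Its paralog Tead2 rose from 22.5 ± 1.13 to 26.4 ± 0.808 FPKM (n = 4 each; adjusted p from limma, 0.000321). The least abundant paralog, Tead4, fell from 3.21 ± 0.217 to 1.38 ± 0.120 FPKM (n = 4 each; adjusted p from limma, 1.17e-07). Tead3 stood at 14.6 and 15.6 FPKM (limma, adjusted p = 0.12). Of the summed FPKM of the 4 TEAD genes Tead1 held 47.0% ± 0.0662 without and 37.3% ± 0.983 with the cocktail, and Tead2 29.6% ± 0.758 and 38.1% ± 0.532 (n = 4 each). Tead1 lies on chromosome 7 from 112679356 to 112906784. It was above Tead2 in every untreated library, whereas their ranges overlapped with the cocktail.

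Lats2, the kinase that phosphorylates YAP and is itself a known YAP target, fell most among the regulators. It had 56.6, 58.2, 58.3 and 60.6 FPKM in untreated and 29.8, 28.8, 27.6 and 25.4 FPKM in cocktail libraries. The fall was 2.09-fold, with a log2 change of -1.04 (SE 0.045; adjusted p from limma, 1.25e-09). The log2 change of Lats2 was -1.11 without cocktail libraries 1 and 2, and -0.97, just short of 2-fold, without libraries 3 and 4. The paralogous kinase gene Lats1 stood at 13.6 ± 0.321 and 13.1 ± 0.757 FPKM (n = 4 each; adjusted p from limma, 0.325). Lats2 remained the more abundant of both, at 81.1% of their summed FPKM in untreated and 67.9% in cocktail libraries. Lats2 lies on chromosome 14 from 57689662 to 57746212, as does Ajuba from 54567469 to 54577661, and Amotl2 lies on chromosome 9 from 102717091 to 102733418.

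Amotl2, an angiomotin-like scaffold that binds YAP and is also a known target, had 64.1, 66.3, 64.9 and 67.1 FPKM in untreated and 54.5, 54.9, 46.8 and 47.3 in cocktail libraries. All cocktail values were lower, and within them libraries 1 and 2 lay above libraries 3 and 4. The log2 change was -0.36 (SE 0.051; adjusted p from limma, 5.33e-05). It was -0.47 without cocktail libraries 1 and 2 and -0.26 without libraries 3 and 4, and the gene was called in both cases (limma, adjusted p = 4.23e-07 and 4.43e-05). The related gene Amot fell further, 2.73-fold, with 12.3 ± 0.357 FPKM in untreated and 4.49 ± 0.216 in cocktail libraries, and Amotl1 went from 34.1 ± 0.289 to 31.1 ± 1.13 (adjusted p from limma, 0.00255). Amotl2 held 58.6% of the summed FPKM of the 3 angiomotin genes in untreated and 58.7% in cocktail libraries.

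Ajuba encodes a LIM protein that binds and restrains LATS kinases, and it differed least among the regulators. Its values were 37.3, 38.9, 37.4 and 39.8 FPKM in untreated and 36.2, 37.1, 36.1 and 34.0 FPKM in cocktail libraries. The nearest libraries of the groups were 37.3 and 37.1 FPKM. The log2 change was -0.09 (SE 0.034; adjusted p from limma, 0.0285). The call did not hold after median-ratio rescaling, where the change was -0.02 (adjusted p = 0.646), without the variance trend (0.0502), without untreated library 2 (0.0658) or 4 (0.0817), without cocktail library 4 (0.0844), or without cocktail libraries 3 and 4 (0.17).

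**Figure D2:**
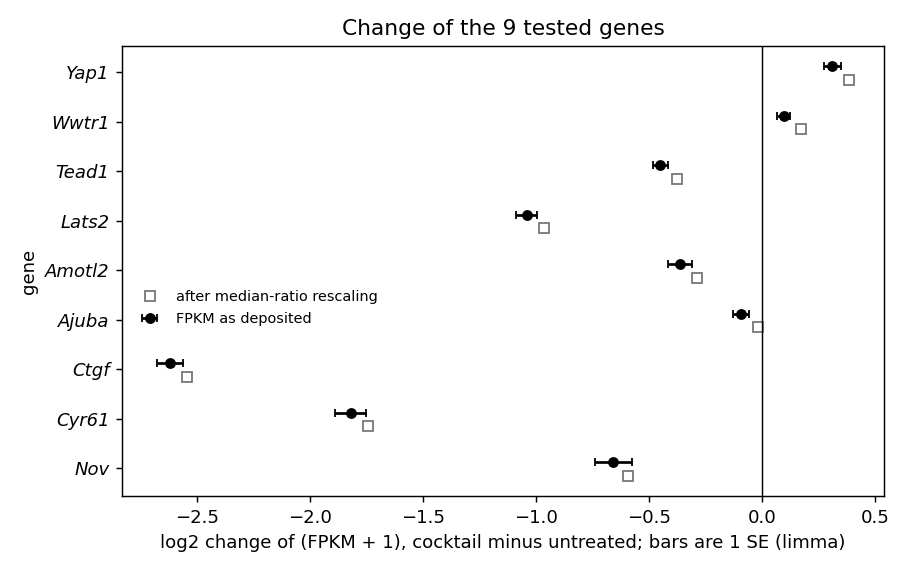
Log2 change of (FPKM + 1), cocktail minus untreated, for the 9 tested genes (black circles, bars 1 SE from limma) and the same after rescaling the libraries by median ratios (grey squares). Ctgf and Cyr61 lie furthest to the left, at -2.62 and -1.82, and Ajuba moves from -0.09 to -0.02 with the rescaling.

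Ctgf and Cyr61 encode secreted CCN proteins of the matrix that are the most used readouts of YAP activity. Ctgf had 388, 392, 402 and 406 FPKM in untreated and 67.7, 56.1, 61.9 and 70.5 FPKM in cocktail libraries. The groups were far apart, with a 6.20-fold fall from 397 ± 8.36 to 64.1 ± 6.39 FPKM. The log2 change of Ctgf was -2.62 (SE 0.058; adjusted p from limma, 4.5e-12), rank 11 among the 6802 tested genes with a negative change. Ctgf lies on chromosome 10 from 24595442 to 24598683, and its exons overlap those of Gm15270 on the opposite strand. The library kit keeps strand, but the counting setting is not stated, so fragments of the pair might not have been told apart. The same holds for Yap1 and Gm20416 on opposite strands, and Lats2 shares exonic sequence with Gm49361 on the same strand.

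Cyr61 had 370, 367, 384 and 407 FPKM in untreated and 113, 124, 96.8 and 98.0 FPKM in cocktail libraries. It fell 3.54-fold, from 382 ± 18.1 to 108 ± 12.97 FPKM, with a log2 change of -1.82 (SE 0.070; adjusted p from limma, 4.75e-10), rank 71 of the same 6802 genes. As in Amotl2, cocktail libraries 1 and 2 lay above libraries 3 and 4, while the 2 pairs were interleaved in Ctgf. Lats2, Nov and Ajuba had the same order of pairs, Yap1 had the reverse, and Tead1, Wwtr1 and Ankrd1 were interleaved. Microglial markers were lower in the pair with the higher Cyr61 and Amotl2 values, and their part in this difference was not tested. Without cocktail libraries 1 and 2 the log2 change of Cyr61 was -1.96, and without libraries 3 and 4 it was -1.68. Cyr61 lies on chromosome 3 from 145646971 to 145649985 and Nov on chromosome 15 from 54745910 to 54753762; RefSeq now lists Ctgf, Cyr61 and Nov as Ccn2, Ccn1 and Ccn3.

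Nov, a CCN family member at low level, had 6.60, 5.28, 6.17 and 7.02 FPKM in untreated and 3.72, 4.07, 3.54 and 3.06 FPKM in cocktail libraries, from 240 to 343 and from 147 to 186 fragments. All cocktail libraries were lower. The fall was 1.74-fold, with a log2 change of -0.66 (SE 0.083; adjusted p from limma, 1.94e-05). Among the other family members, Wisp2 fell from 118 ± 3.11 to 81.7 ± 12.98 FPKM (n = 4 each; adjusted p from limma, 0.000151). The 4 cocktail values of Wisp2 were 90.0, 95.4, 72.7 and 68.8 FPKM, again higher in libraries 1 and 2 than in 3 and 4. Its log2 change was -0.54 with all libraries, -0.73 without cocktail libraries 1 and 2 and -0.35 without libraries 3 and 4. Wisp1 stood at 5.69 ± 0.633 and 6.73 ± 0.564 FPKM (n = 4 each; adjusted p from limma, 0.0227), in groups that overlapped. The Wisp1 call was lost without untreated library 1 (adjusted p = 0.062) or 2 (0.0681), without cocktail library 1 (0.0568), 2 (0.0571) or 3 (0.0577), and without cocktail libraries 1 and 2 (0.167). Wisp3 had a value above 0 in 1 cocktail library only. The summed level of the CCN genes was 909 ± 26.8 FPKM without and 264 ± 23.3 FPKM with the cocktail (n = 4 each). Ctgf made up 43.7% of this sum in untreated and 24.5% in cocktail libraries, Cyr61 42.0% and 40.8%, and Wisp2 13.01% and 30.8%.

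**Figure D3:**
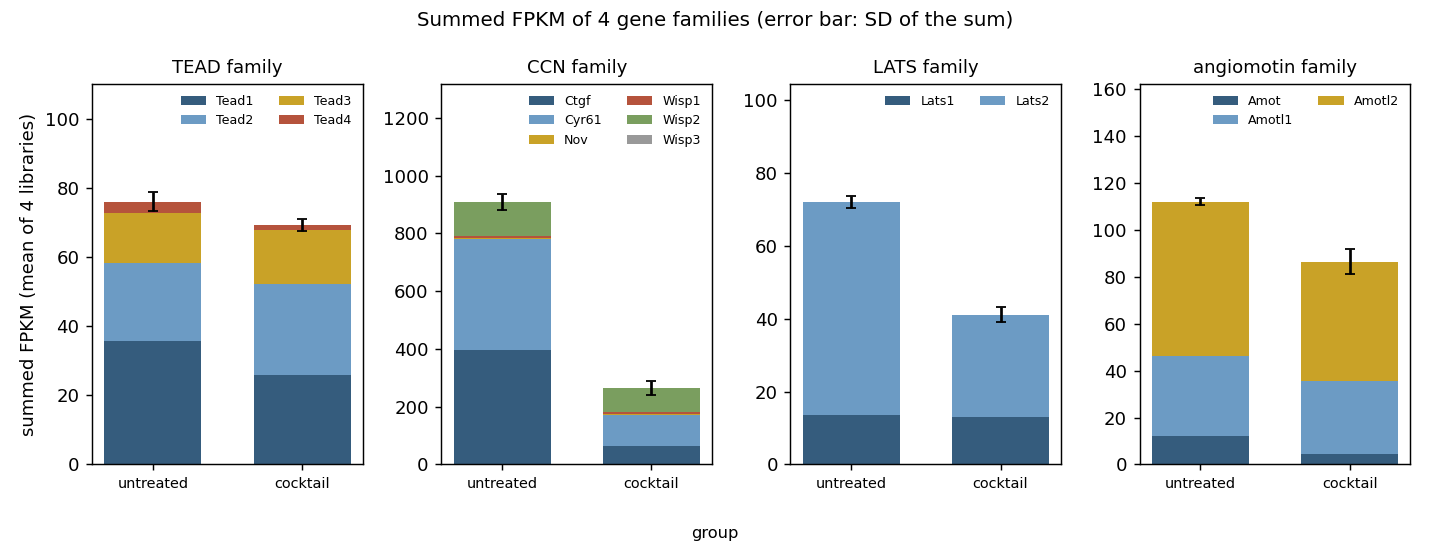
Mean summed FPKM of the TEAD, CCN, LATS and angiomotin genes in untreated and cocktail libraries (4 each), stacked by gene, with the SD of the sum as error bar. The CCN sum goes from 909 to 264 FPKM, mostly through Ctgf and Cyr61, whereas the TEAD sum goes from 76.0 to 69.3 FPKM with Tead1 making up less of it.

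Ankrd1, a nuclear ankyrin repeat protein of strained muscle and another common YAP readout, was close to the limit of detection and below the filter for the test. It had 0.146, 0.0590, 0.310 and 0.274 FPKM in untreated and 0.620, 0.528, 0.525 and 0.698 FPKM in cocktail libraries. These values rest on 5, 2, 11 and 10 fragments in untreated and on 22, 18, 19 and 25 in cocktail libraries, 28 and 84 in sum. All cocktail libraries were higher, in the opposite direction to Ctgf and Cyr61 (exact two-sided permutation test on FPKM, p = 0.0286, the smallest that 4 against 4 libraries can give). With no filter on low values the log2 change was 0.42 (SE 0.069; adjusted p from limma, 0.000736). The mean was 0.197 ± 0.116 FPKM in untreated and 0.593 ± 0.083 FPKM in cocktail libraries. Ankrd1 lies on chromosome 19 from 36111965 to 36119844. Its 2 TEAD motif matches in the sequence printed above lie 210 to 205 and 123 to 118 bases before the start site.

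In untreated cells Ctgf and Cyr61 ranked first and second among the 10 genes, with overlapping ranges, at 397 and 382 FPKM, far above Amotl2, the next gene at 65.6 FPKM. Lats2, Wwtr1, Yap1, Ajuba and Tead1 followed between 58.4 and 35.7 FPKM, each pair of neighbours without overlap, and then Nov and Ankrd1. With the cocktail Cyr61 came first at 108 FPKM. Ctgf overlapped with Wwtr1 behind it, Yap1 overlapped with Amotl2, and Lats2 with Tead1. The values of the 10 genes thus lay closer together in treated cells, apart from Nov and Ankrd1.

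Ratios of related genes within a library do not depend on the scaling between libraries. They were chosen after their values were seen, so the 5 ratios are given as a description with no test. Ctgf over Cyr61 was 1.04 ± 0.0303 without and 0.602 ± 0.111 with the cocktail (n = 4 each). Cocktail library 2 had the lowest ratio, 0.453, and library 4 the highest, 0.719. Lats2 over Lats1 was 4.29 ± 0.174 and 2.13 ± 0.201, Tead1 over Tead2 was 1.59 ± 0.0400 and 0.979 ± 0.0284, and Amotl2 over Amotl1 was 1.92 ± 0.0543 and 1.63 ± 0.112 (n = 4 each). Yap1 over Wwtr1 was 0.779 ± 0.0437 and 0.906 ± 0.0384 (n = 4 each). The groups did not overlap in any of the 5 ratios. This was common among single genes, at 62.7% of those tested, and no such share was computed for ratios.

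**Figure D4:**
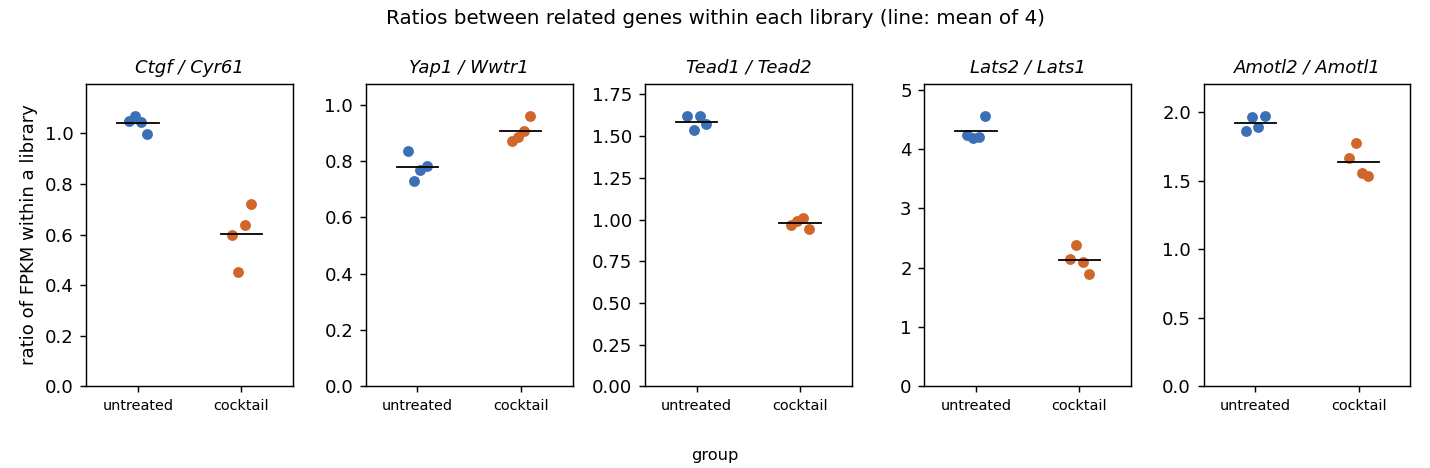
Ratio of the FPKM of related genes within each library for untreated (blue) and cocktail (orange) libraries, 4 each, with a line at the mean. The groups do not overlap in any of the 5 ratios, and Ctgf over Cyr61 goes from near 1 to between 0.453 and 0.719.

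The rest of the pathway was read from lists that exclude the 10 genes. Of 22 Hippo kinases, scaffolds and inhibitors 12 fell and none rose (limma, adjusted p under 0.05), with a median log2 change of -0.12. Over all tested genes 41.1% were called lower and 26.6% higher, with a median of -0.05. After median-ratio rescaling 10 were lower and 3 higher, so the absence of rises depends on the scaling. Nuak2, a kinase gene and known YAP target, fell 2.75-fold, from 48.4 ± 0.859 to 17.6 ± 2.57 FPKM. Wwc1, the gene of the LATS activator KIBRA, fell from 274 ± 10.97 to 115 ± 7.79 FPKM and Amot 2.73-fold. Of the core kinase genes, Stk4 fell 1.34-fold, from 14.7 ± 0.405 to 10.97 ± 0.496 FPKM (adjusted p from limma, 2.55e-06), and Stk3 was not called (0.266). The cofactors Sav1, Mob1a and Mob1b were also among the 10 that were not called.

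Of 5 tested TEAD factors and cofactors 3 fell and 1 rose, where 41.1% of all tested genes were called lower and 26.6% higher. After median-ratio rescaling 3 fell and 2 rose. The number of rises was also 2 with quantile normalization, without cocktail library 3 and without cocktail libraries 3 and 4. Vgll3 and Vgll4, whose products compete with YAP for TEAD, both fell, Vgll3 from 20.7 ± 0.782 to 10.4 ± 0.512 FPKM and Vgll4 from 28.5 ± 0.881 to 23.8 ± 1.36. Vgll1 was at 0 in all libraries and Vgll2 was at most 0.0316 FPKM.

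The other published YAP and TEAD target genes did not move one way. Of 21 tested 11 rose and 8 fell, the same counts after median-ratio rescaling, and the median log2 change was 0.24. As deposited, 26.6% of all tested genes were called higher and 41.1% lower. Arhgef17, which encodes a guanine nucleotide exchange factor, rose from 42.3 ± 0.798 to 102 ± 1.34 FPKM, and Fstl1, a secreted glycoprotein, from 347 ± 11.8 to 785 ± 43.5 FPKM. Birc5, the apoptosis inhibitor survivin that is also a cell division gene, fell from 5.65 ± 0.495 to 1.80 ± 0.314 FPKM, and the coagulation factor gene F3 from 109 ± 5.96 to 60.1 ± 1.44. Thbs1, which encodes a matrix glycoprotein, had a log2 change of -1.10. Many genes of this list are also targets of other pathways.

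**Figure D5:**
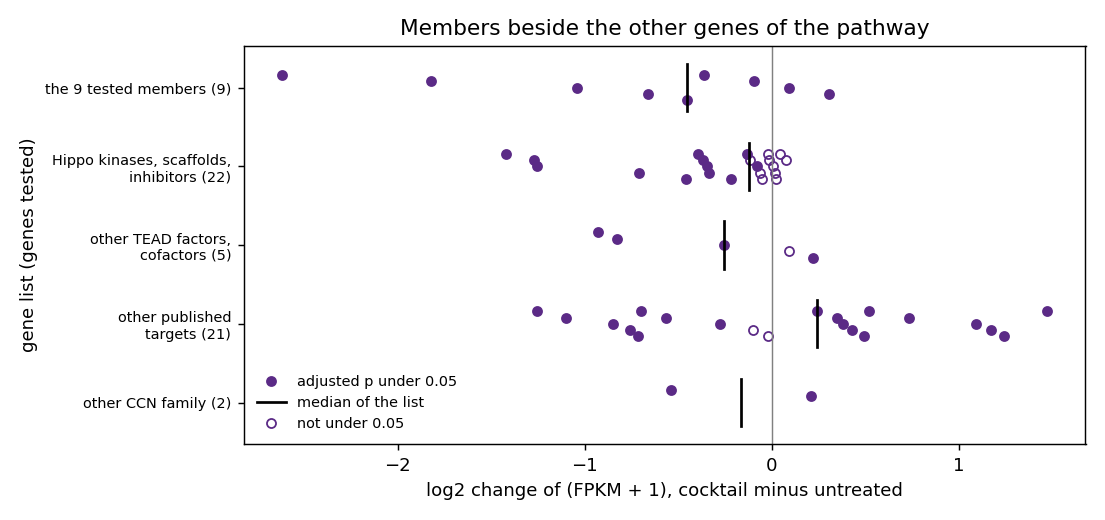
Log2 change of (FPKM + 1), cocktail minus untreated, for each tested gene of the 9 members and the 4 other lists, filled where the limma adjusted p was under 0.05, with a bar at each median. The published targets spread to both sides of 0, with medians of -0.45 for the members and 0.24 for the other targets.

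Marker lists of other cell types did not all move one way, and 41.1% of all tested genes were called lower and 26.6% higher. All 5 tested microglial markers, of 10 listed, were called higher, while 7 of the 8 astrocyte markers were called lower. Each of the 5 was higher in cocktail libraries 3 and 4 than in 1 and 2, and in Csf1r and Tyrobp the groups overlapped. Of the untested ones, Tmem119 stood at 0.606 and 0.600 FPKM. P2ry12, Aif1, Cx3cr1 and Ptprc had higher means with the cocktail, in groups that overlapped. Of the mural cell list, which holds contractile genes, all 5 tested markers of 8 fell, and the summed level of the list was 1068 to 1211 FPKM in untreated and 235 to 263 FPKM in cocktail libraries. The sum came mostly from the contractile genes Acta2 (581 ± 31.7 and 111 ± 5.48 FPKM) and Tagln (555 ± 32.0 and 116 ± 5.72 FPKM). Pdgfrb, a defining pericyte marker, stood at 20.4 ± 0.434 and 16.4 ± 1.39 FPKM, and Myh11, Kcnj8 and Abcc9 were below 1 FPKM in all libraries. Fibroblast and meningeal markers summed to 107 to 132 FPKM in untreated and 87.9 to 119 in cocktail libraries, with 3 of 7 tested higher and 2 lower. The rises were 32.5-fold in Lum, 5.71-fold in Dcn and 3.29-fold in Pdgfra, all from low levels, and the falls were 1.42-fold in Col1a1 and 1.67-fold in Col1a2, which made up most of the sum. The endothelial list summed to 5.07 to 5.54 FPKM in untreated and 1.63 to 2.09 FPKM in cocktail libraries. Kdr made up most of the untreated sum and its fall accounts for the drop. The other markers were below 1 FPKM in all libraries, the highest of them, Cdh5, at means of 0.568 and 0.580 FPKM. Its only tested marker, Kdr, fell 6.48-fold, from 3.99 ± 0.120 to 0.616 ± 0.0686 FPKM (adjusted p from limma, 1.05e-10), and Cldn5 was at 0 in all libraries. Kdr, Rgs5 of the mural list and the astrocyte marker S100b reached 1 FPKM in untreated libraries only, and Lum in cocktail libraries only. These 4 genes thus entered the test only through the group where they were higher. Neuron markers summed to 139 to 157 FPKM in untreated and 49.4 to 56.0 FPKM in cocktail libraries. Of 3 tested 2 were lower, Stmn2 3.22-fold and Map2 3.05-fold, and Tubb3 was not called (limma, adjusted p = 0.0723). Stmn2 made up most of the sum, with means of 125 and 38.8 FPKM. Rbfox3 and Snap25 were at most 0.114 FPKM in any library, and Syt1 averaged 0.781 and 0.930 FPKM. Oligodendrocyte lineage markers summed to 208 to 222 and 118 to 122 FPKM, with 3 of 4 tested lower (Olig1, Olig2 and Cnp), and Mog was at 0 in all libraries. Whether such cells were present, and what part they had in the falls of Ctgf and Cyr61, was not tested.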

How the data were processed

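RNA of 8 astrocyte libraries was sequenced after TRIzol extraction and a stranded mRNA kit, per the labels' protocols. Groups came from the titles; the treatment field of cocktail libraries 2 to 4 spells C1q with other digits. The authors deposited FPKM values for 21878 genes. The submitters' processing notes name DESeq and mm10; aligner, counter and strand setting are not stated there or in the labels. Whole fragments were recovered from FPKM ratios within a gene (relative tolerance 1e-11) for 16557 genes; recovery and test were also tested on simulated data. limma 3.58.1 (R 4.3.3) was fitted to log2(FPKM + 1) of the 11845 genes that reached 1 FPKM in 4 or more libraries, using the mean-variance trend without covariates; these fold changes understate low genes. Calls are two-sided Benjamini-Hochberg adjusted p under 0.05. Positions came from RefSeq GRCm38.p6 by NCBI gene number, overlaps from GENCODE M21. A count of 0 allows 3 fragments, 0.0727 to 0.0781 FPKM for 2 kb, for counting error only. In replicate pairs the chi-square of fragments was 2.11 to 6.79 per gene, above the value of 1 that sampling alone gives. Each library was therefore treated as 1 sample. The chi-square does not show whether libraries came from separate animals or cultures. The members, lists and rule for naming (all 10 members, and up to 3 called rises and 3 called falls per pathway list) were chosen with earlier results of these data known; Lats1, Amotl1, Tead3, Stk3, Stk4, Sav1, Mob1a, Mob1b and markers were named after their values were seen. A list gene that the naming rule picked is not reported here. The 18 alternatives are described in the closing section.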

Additional observations from a re-analysis of the deposited data

Results flagged for a closer look

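Within groups of 4, 2 of 60 sets of values had a library far from the other 3 (Dixon's test at 95%, which by chance marks about 1 in 20). Wisp1 was 5.89 FPKM in cocktail library 4, against 6.99 to 7.06 in the other cocktail libraries. The ratio of Lats2 over Lats1 was 4.55 in untreated library 4, against 4.19 to 4.24 in the other untreated libraries. Without the library concerned, Wisp1 was still called higher and Lats2 lower.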

How the results depend on the processing

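The alternatives were median-ratio rescaling, quantile normalization, a pseudocount of 0.1, no filter, a mean of at least 5 FPKM, no variance trend, voom on the recovered fragments, leaving out each library, leaving out cocktail libraries 1 and 2 or 3 and 4, and a replicate block. Tested genes stayed those of the full set when libraries were left out. Over 162 values of the 10 members no direction changed, 155 kept their side of the threshold, 6 lost the call (all Ajuba) and 1 gained it (Ankrd1, tested only without the filter). With the mean filter Nov was not tested. Without 1 library the members gave 2 rises and 6 to 7 falls, and all genes gave 2942 to 3059 rises and 4664 to 4765 falls. The split of all calls depends on the scaling: 3151 higher and 4872 lower as deposited (39.3% higher), against 4281 and 3976 after median-ratio rescaling (51.8% higher), which moved the median log2 change of all genes by 0.068. Of 268 values of the 15 list genes picked by the naming rule, 6 lost the call, all of Wisp1, and no direction changed. Same-numbered libraries of the groups had deviations correlated at -0.0438, 0.0784, 0.0859 and -0.00706. These values show no shared effect of the replicate number but cannot exclude a common origin of same-numbered libraries. With the replicate block 3121 genes were higher and 4829 lower, and 2 members higher and 7 lower. Depth limits Ankrd1, with 2 to 25 fragments per library.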
